A study of Phrynocephalus vlangalii with 2 samples.

Results

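The genes described here are mostly those that carry, break down, take up and store blood lipid. They are the apolipoproteins, lipoprotein lipase, the low-density lipoprotein (LDL) receptor with its adapter protein and its relatives, and perilipin. The LDL receptor-related protein 5/6, the name of 8 copies, is included by its name and is a co-receptor of Wnt signalling. They were taken from the table of a lizard transcriptome as the assembled genes whose annotation text starts with apolipoprotein or names lipoprotein lipase, the LDL receptor, microsomal triglyceride transfer or perilipin. The rule found 19 of 58458 assembled genes, under 7 of the 4819 annotation names in the table. An assembled gene is called a copy here, because several can be pieces of a single transcript or relatives under a shared name. Of the 19 copies, 16 had reads in both libraries and 3 had 0 reads in the Maqu library. No copy had a text for microsomal triglyceride transfer, and 2 copies had a text for an apolipoprotein.

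The RNA came from adult toad-headed lizards (Phrynocephalus vlangalii) of the Madoi population and the Maqu population, and the series title places the comparison in a study of life at high altitude. Each population gave 1 library, labelled with 4 tissues, liver, lung, heart and muscle. No difference below therefore has a replicate check, and each one compares 2 libraries, not 2 populations. How many animals stand behind a library is not stated in the labels, and tissues cannot be told apart within a library. The table held 63636642 estimated reads for Madoi and 66401091 for Maqu.

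Lipids travel in blood as lipoproteins, particles of fat and cholesterol wrapped in apolipoproteins that the liver and the gut secrete. Lipoprotein lipase on the vessel wall of muscle, heart and fat frees fatty acids from these particles. The LDL receptor then takes up the cholesterol-rich remnants into cells, above all in the liver, and perilipin guards the droplets in which fat is stored.

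Log2 ratios of Madoi over Maqu were taken from reads scaled for library size. Summed by name, they were above 0 for both apolipoproteins, the LDL receptor and its adapter protein. By the same sum they were below 0 for lipoprotein lipase, the LDL receptor-related protein 5/6 and perilipin. The threshold for a call was a 2-fold difference with a 95% counting interval that excluded equality, given a minimum of 10 reads over the pair of libraries. Of the 16 copies with Maqu reads, 2 were called higher, 1 lower and 13 neither. The 2 called higher were apolipoprotein A-I and apolipoprotein A-IV. The latter passed the read minimum only through its Madoi reads, and with it set apart 1 copy was called higher. Over all 48100 assembled genes with Maqu reads and at least 10 reads, 13.1% were called higher and 13% lower, so the members' counts were close to the background of the table. With the genes that had 0 Maqu reads included, 28.5% of 58440 were called higher and 10.7% lower. The median log2 ratio of the 16 copies was -0.53, against -0.01 over the 48100, and 7 of the 16 copies shared the name of the LDL receptor-related protein 5/6. Summed by name over copies with Maqu reads, 2 of 7 names were called higher and 0 lower, where 5.89% of all names were called higher and 7.15% lower. These 2 names were again the apolipoproteins, A-IV among them. The median over the 7 names was 0.29, against 0.00 over 4702 names. It turned to -0.23 over 6 names without apolipoprotein A-IV, which had 1 Maqu read.

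**Figure D1:**
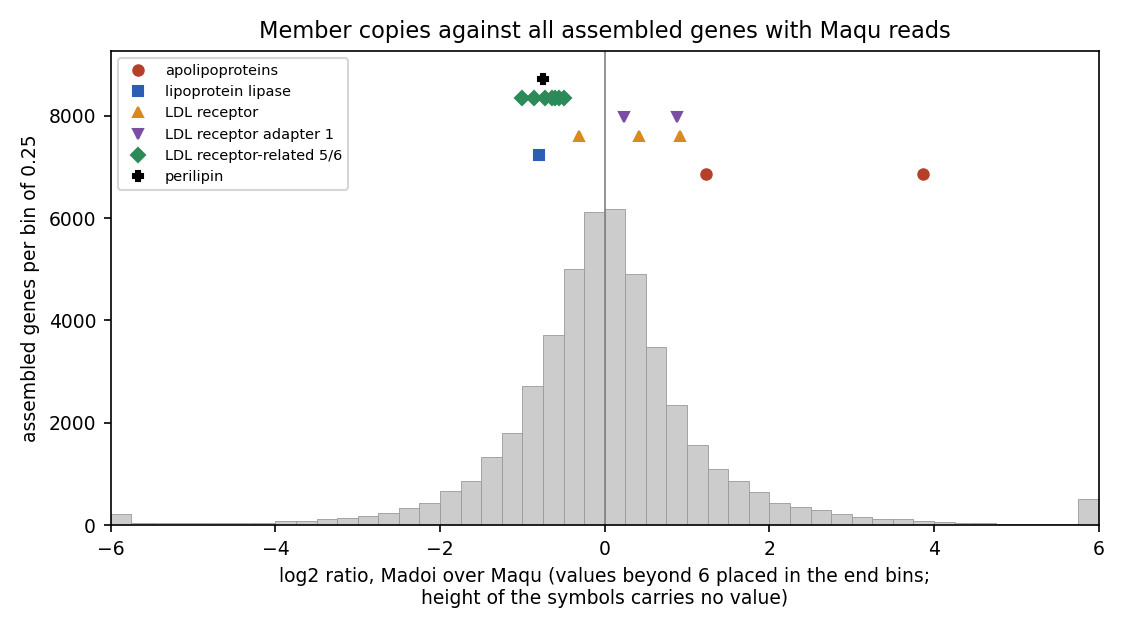
Grey bars count the assembled genes with Maqu reads in each bin of the log2 ratio of Madoi over Maqu, and the symbols above them mark the 16 member copies with Maqu reads at their ratio on the same horizontal axis. The copies of the LDL receptor-related protein 5/6 sit together between -1.001 and -0.50, and apolipoprotein A-IV stands alone at 3.86.

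Apolipoprotein A-I, the main protein of high-density lipoprotein, was higher in the Madoi library. Its only copy, comp13985_c0 of 1356 bases, had 3409 Madoi reads against 1573 Maqu reads. Its level, in reads scaled by transcript length and library size (RPKM), was 39.5 in Madoi and 17.5 in Maqu. From the reads scaled by library, the difference was 2.34-fold, a log2 ratio of 1.23 (counting interval 1.14 to 1.31). Among the 10318 assembled genes with Maqu reads and at least 1000 reads in both libraries together, 6.55% were called higher and 4.56% lower, and 9 in 10 ratios lay below 0.75. As in any bulk RNA, more cells of a type and more RNA per cell cannot be told apart here, nor can a different share of liver in the library.

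The liver markers in the table did not share this direction. All 4 liver names with a text had ratios below 0, with a median of -0.80 and a summed level of 977 CPM (counts scaled to a common library size) in Madoi and 1775 CPM in Maqu. Fibrinogen alpha chain and fibrinogen beta chain, clotting proteins made by the liver, stood at -0.87 and -0.73. Antithrombin III stood at -0.02 over 3 copies, with an interval from -0.05 to 0.01 that spans equality. Its copy with the highest mean of scaled reads stood at -0.70. The tyrosine-degrading enzyme 4-hydroxyphenylpyruvate dioxygenase stood at -2.39, with 89.1 CPM in Madoi and 465 CPM in Maqu. Fatty acid-binding protein 1 of liver was called higher, with 88 Madoi reads against 41 Maqu reads. The part of liver content in the result for apolipoprotein A-I was not tested.

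Apolipoprotein A-IV, a carrier made mostly by the gut in mammals, was scarce in both libraries. Its copy comp4383_c0 was a piece of 262 bases with 20 Madoi reads against 1 Maqu read, or 1.58 RPKM in Madoi and 0.08 RPKM in Maqu. It was called higher, at a log2 ratio of 3.86 whose interval ran from 1.79 to 9.81. The Maqu value lies below the 3 reads that a count of 0 would allow, and this copy had no protein match in the table. Gut is not among the tissues named in the library labels. Of the gut markers, intestinal fatty acid-binding protein 2 was called lower at -1.19 and villin 1 stood at -0.40. Their part in the result was not tested.

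Lipoprotein lipase, the enzyme that releases fatty acids from circulating particles, did not pass the 2-fold threshold, with fewer reads in the Madoi library. The single copy, comp12239_c0 of 3865 bases, had 6892 Madoi reads against 12907 Maqu reads. Its level was 26.98 RPKM in Madoi and 48.7 RPKM in Maqu, and its log2 ratio -0.80 (interval -0.84 to -0.75). Of the assembled genes with at least 1000 reads, 9 in 10 had ratios above -0.65.

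Perilipin, the droplet coat protein, stood close to the lipase. Its copy comp40637_c0 of 2268 bases had 2403 Madoi reads against 4344 Maqu reads, at 22.4 RPKM in Madoi and 35.9 RPKM in Maqu. The log2 ratio was -0.74, and its interval, -0.82 to -0.67, overlaps that of the lipase. Within a library, the lipase had 1.21 times the RPKM of perilipin in Madoi and 1.36 times in Maqu. Their read ratio changed by a factor of 0.97 between the libraries, with a counting interval from 0.91 to 1.02, a value that needs no scaling of library size. By RPKM the same balance changed by a factor of 0.89, outside that interval, so the measures differ for this pair.

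The other fat cell markers stood nearer to 0 than these members of the fat list. Adiponectin, a hormone of fat cells, had 10488 Madoi reads against 11589 Maqu reads, a ratio of -0.03. Adipocyte fatty acid-binding protein 4 had 6192 Madoi reads against 7133 Maqu reads, a ratio of -0.09. With lipoprotein lipase and perilipin, the summed level of the 4 fat names was 415 CPM in Madoi and 533 CPM in Maqu. That sum includes the lipase and perilipin themselves, so it is no separate measure of fat content. Adiponectin alone had a Madoi level of 168 CPM against a Maqu level of 172 CPM. For fatty acid-binding protein 4 the levels were 99.0 against 106 CPM, in the same order. Macrophages also make the lipase, and their marker macrophage colony-stimulating factor 1 receptor stood at -0.61. The 5 heart names had a median of 0.89, at sums of 1257 CPM in Madoi and 729 CPM in Maqu. Their ratios ran from -0.42 to 1.23, with 3 above 0. Cardiac troponin T alone stood at 1142 CPM in Madoi and 617 CPM in Maqu. For the 4 fast skeletal muscle names the median was -0.14, at sums of 3668 CPM in Madoi and 3604 CPM in Maqu. The 3 lung names had a median of -1.12 and were not alike. Surfactant protein A stood at -1.12, homeobox protein Nkx-2.1 at -1.38 and lysosomal-associated membrane protein 3 at -0.0006. No marker name with a text was at 0 reads. The part of each tissue in the lipase and perilipin ratios was not tested.

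**Figure D2:**
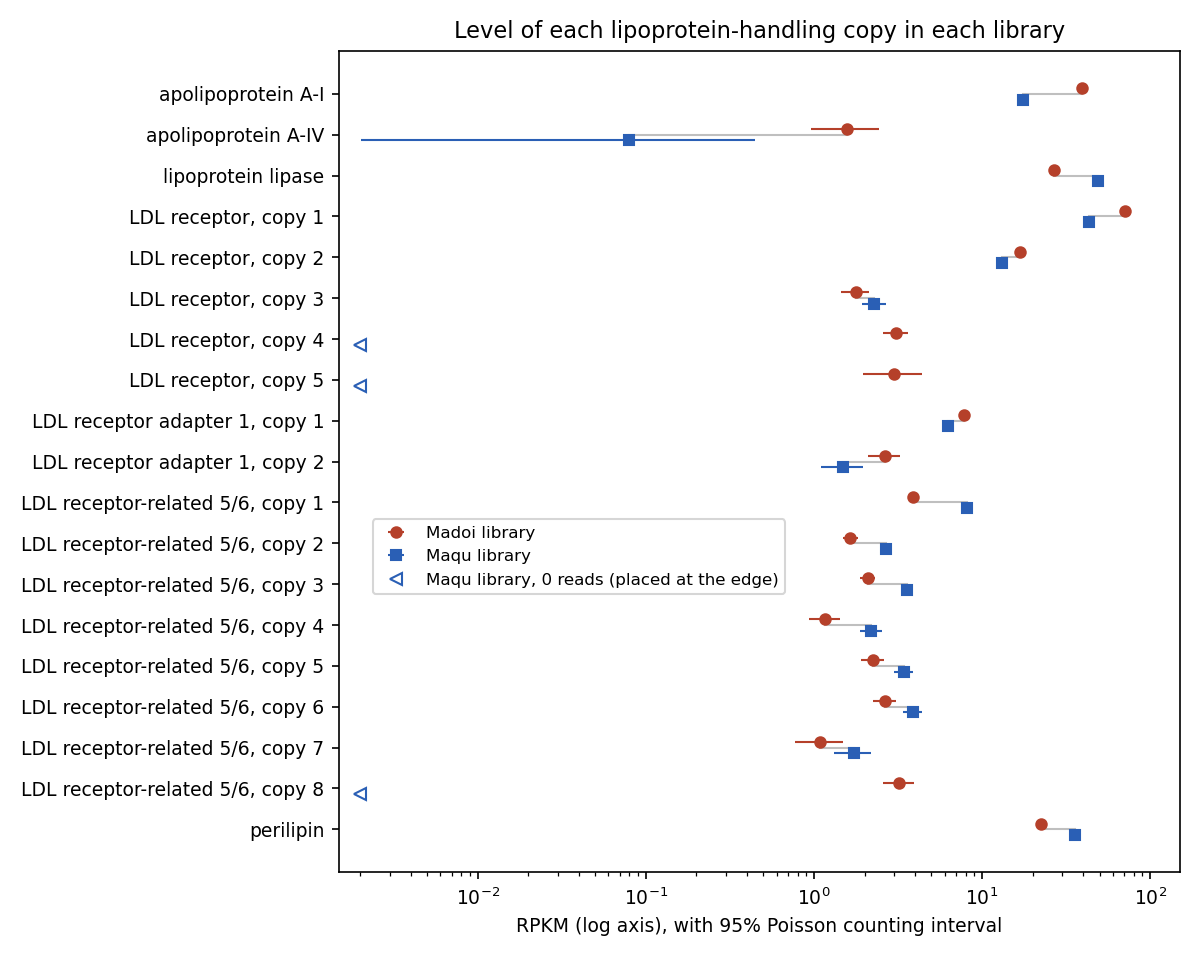
Each row is a member copy, with its RPKM in the Madoi library as a circle and in the Maqu library as a square on a log axis, with 95% Poisson counting intervals. Open triangles at the edge mark copies with 0 Maqu reads. Copy 1 of the LDL receptor is the highest in Madoi at 70.6 RPKM, and lipoprotein lipase the highest in Maqu at 48.7 RPKM.

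The order of the members by level differed between the libraries. In Madoi, copy 1 of the LDL receptor came first, followed by apolipoprotein A-I, lipoprotein lipase and perilipin. In Maqu, lipoprotein lipase came first, followed by copy 1 of the LDL receptor, perilipin and apolipoprotein A-I. Within each library the counting intervals of these 4 did not overlap. Lipoprotein lipase had 0.68 times the RPKM of apolipoprotein A-I in Madoi and 2.77 times in Maqu, a 4.06-fold change in their balance with a counting interval from 3.80 to 4.34. Below 3 RPKM in Madoi, most neighbours in the order had overlapping counting intervals.

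The copies with Maqu reads under the name LDL receptor matched different proteins and can be different receptors, and their ratios were not alike. Copy 1, comp40415_c0 of 3932 bases, held 75.1% of the reads of the name in Madoi and 68.6% in Maqu. It had 11355 Madoi reads against 6505 Maqu reads. The table gave it gene ontology terms for LDL receptor activity and cholesterol homeostasis. Its log2 ratio was 0.91 (interval 0.87 to 0.96), short of the 2-fold threshold. Its level was 70.6 RPKM in Madoi and 43.1 RPKM in Maqu. This copy joined 11 assembled transcripts, and the log2 ratio of its RPKM in the authors' deposited table was 0.71, lower than that of its reads.

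Copy 2 of the LDL receptor, comp28013_c0 of 3166 bases, carried terms for very-low-density lipoprotein receptor activity and response to hypoxia, and it matched another protein than copy 1 did. It had 3492 Madoi reads against 2826 Maqu reads, or 16.8 RPKM in Madoi and 13.1 RPKM in Maqu. Its ratio was 0.42, and its interval, 0.34 to 0.49, lies apart from that of copy 1. Copy 3, comp18865_c0 of 1021 bases, had terms for binding of LDL particles and for transmembrane signalling. Its 113 Madoi reads against 151 Maqu reads gave a ratio of -0.31, with an interval from -0.67 to 0.05 that spans equality. Copy 3 also matched another protein than copies 1 and 2 did. The sum of copies 1 to 3, which share the name only, stood at 0.77.

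The LDL receptor adapter protein 1 links the receptor to the coated pits through which it enters the cell. Copy 1, comp35144_c0 of 1670 bases, had 734 Madoi reads against 673 Maqu reads, or 7.81 RPKM in Madoi and 6.29 RPKM in Maqu. Its ratio was 0.24, with an interval from 0.08 to 0.39. Copy 2, comp145806_c0 of 546 bases, had 84 Madoi reads against 49 Maqu reads, a ratio of 0.88 with an interval from 0.36 to 1.43. The intervals of the copies overlap narrowly, and both lie above 0.

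The LDL receptor-related protein 5/6 is a co-receptor of Wnt signalling and belongs to the receptor family by its structure. The copies under this name matched different proteins, and whether all are this co-receptor was not tested. All 7 copies of the name with Maqu reads had ratios below 0, from -1.001 to -0.50. Copy 1, comp36130_c0 of 6237 bases, held 56.2% of the reads of the name in Madoi and 63.6% in Maqu. It had 1622 Madoi reads against 3504 Maqu reads, or 3.91 RPKM in Madoi and 8.15 RPKM in Maqu. Its ratio of -1.001 (interval -1.09 to -0.92) placed it at the threshold. It was called lower, and it was not called when the libraries were scaled by the median of ratios or when the pseudocount was 5 reads.

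The other 6 copies of the LDL receptor-related protein 5/6 were between 603 and 3254 bases long and had 39 to 390 reads in Madoi and 64 to 697 in Maqu. Their levels were 1.09 to 2.64 RPKM in Madoi and 1.72 to 3.88 RPKM in Maqu, and 0 of the 6 passed 2-fold. Their intervals excluded equality in each case, most narrowly for copy 7, from -1.22 to -0.01. By the protein they matched in the table, 3 copies formed a group at -0.64, and copies 2 and 4, which carry a term for negative regulation of Wnt signalling, a group at -0.69. The interval of the larger group, from -0.78 to -0.51, lay above that of copy 1. Copies 3 and 6 came from the same Trinity component, and copies 2 and 7 shared another. Copies that share a match or a component can be pieces of a single transcript and do not count as repeats of the comparison. The sum over the 7 copies was 2797 Madoi reads against 5506 Maqu reads, a ratio of -0.87 that did not pass 2-fold.

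**Figure D3:**
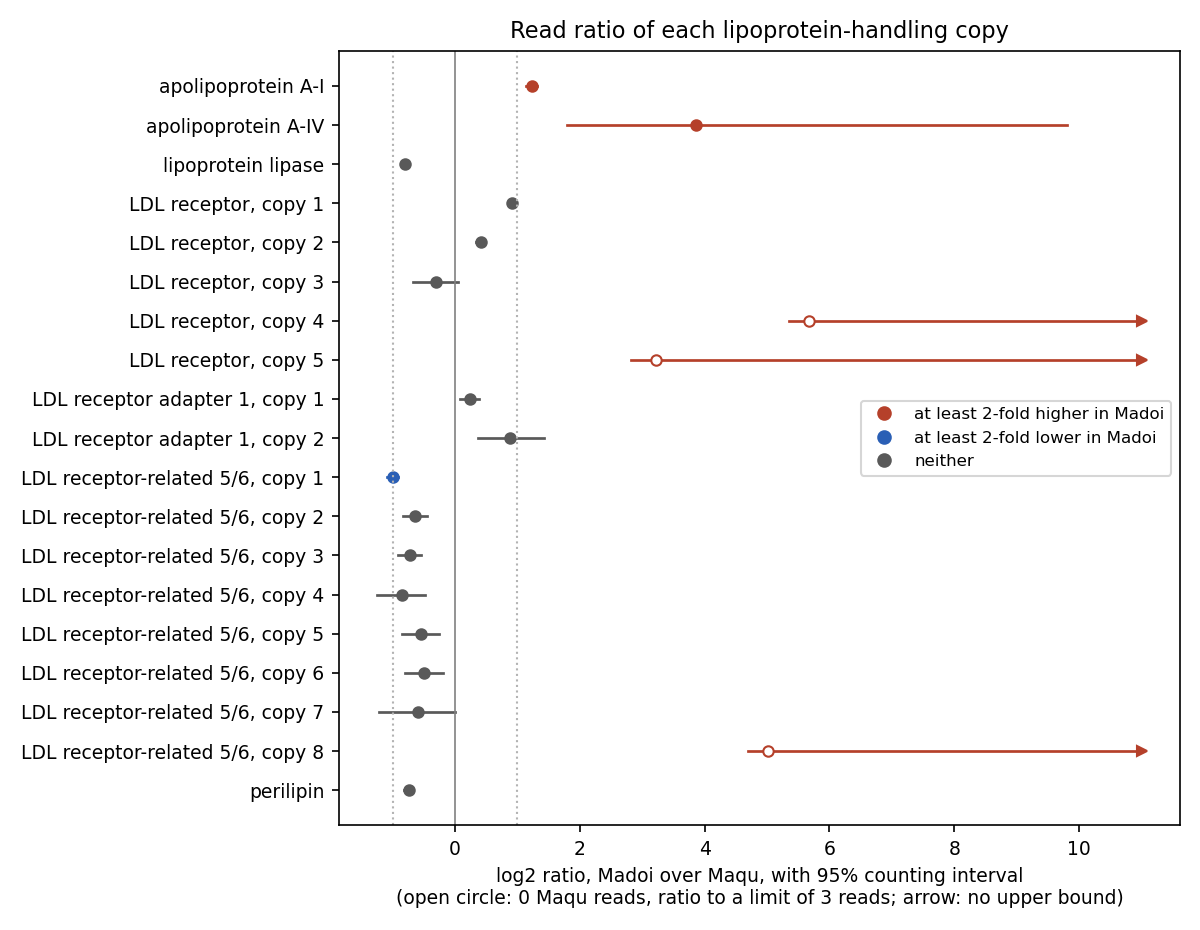
Points are log2 ratios of Madoi over Maqu for the 19 copies, with 95% counting intervals, and dotted lines mark 2-fold. Red marks copies called higher, blue called lower and grey neither. Open circles are copies with 0 Maqu reads, set against the limit of 3 reads and with no upper bound. All 7 copies of the LDL receptor-related protein 5/6 with Maqu reads lie left of 0.

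The 3 copies with 0 Maqu reads are possibly not lizard and were kept out of the values above. Copy 4 of the LDL receptor, comp22271_c1 of 758 bases, had 141 reads in Madoi and was at least 50.7-fold higher there against a limit of 3 Maqu reads. Copy 8 of the LDL receptor-related protein 5/6, comp22271_c0 of 491 bases, had 90 reads and was at least 32.4-fold higher. Copy 5 of the LDL receptor, comp14518_c0 of 203 bases, had 26 reads and was at least 9.35-fold higher. These limits take the Madoi reads as counted. With their counting error included, the lower ends of the log2 intervals were 5.35, 4.69 and 2.82 in the same order. The first and second of these came from the same Trinity component, and the third matched the same protein as copy 1 of the LDL receptor. Their levels in Madoi were 3.06, 3.20 and 2.99 RPKM, with overlapping counting intervals. In all, 10345 assembled genes, or 17.7% of the table, had 0 Maqu reads, with a median of 3.84 RPKM in Madoi. The species behind these copies was not tested. Added to their names, they gave a ratio of 0.78 in place of 0.77 for the LDL receptor and of -0.82 in place of -0.87 for the LDL receptor-related protein 5/6.

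Other genes of lipoprotein and lipid transport were mostly within 2-fold of equality. Of 71 entries in this list, 37 had an annotation text. Over copies with Maqu reads, 3 of these names were called higher, 2 lower and 32 neither, with a median of 0.18. With 5.89% of all names called higher and 7.15% lower, the counts of this list were near the background.

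The genes of this list that passed the threshold had different roles. MYLIP, a ubiquitin ligase that sends the LDL receptor for degradation, was called higher, with 3762 Madoi reads against 1665 Maqu reads and a ratio of 1.29. PPAR gamma, the nuclear receptor of fat cell formation, which the table lists as nuclear receptor subfamily 1, group C, member 3, was called higher with 214 Madoi reads against 100 Maqu reads. The third name called higher was fatty acid-binding protein 1 at 1.20, given above with the liver markers. Acylglycerol lipase, which frees the last fatty acid from a stored triglyceride, was called lower with 473 Madoi reads against 1152 Maqu reads, a ratio of -1.17. The other name called lower was fatty acid-binding protein 2, with 1004 Madoi reads against 2479 Maqu reads.

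Among genes of particle assembly, 0 of 7 names were called with copies summed. Diacylglycerol O-acyltransferase 2 stood at -0.47 over 4 copies, and its copy with the highest mean of scaled reads at -1.01. Protein disulfide isomerase family A, member 3, a folding enzyme of the endoplasmic reticulum, stood at 0.87 summed over 2 copies. Its copy with the higher mean of scaled reads stood at 0.27. Prolyl 4-hydroxylase, beta polypeptide, a subunit of the transfer protein that loads lipid onto particles, stood at 0.04. Among 3 genes that remodel particles in plasma, phospholipid transfer protein stood at 0.72 and angiopoietin-like 4, an inhibitor of lipoprotein lipase, at 0.42. Angiopoietin-like 4 had 2510 Madoi reads against 2021 Maqu reads.

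Among the uptake receptors, CD36, which takes up fatty acids, stood at 0.18 with 23441 Madoi reads against 22330 Maqu reads. The LDL-related protein 1, a receptor for remnant particles, stood at -0.42. The 2 names of cholesterol and bile salt export and the 2 of the lysosome all had ratios above 0. They were the cholesterol exporter ABCA1 at 0.10, the bile salt pump ABCB11 at 0.47, lysosomal acid lipase at 0.61 and Niemann-Pick C1 at 0.32. For ABCB11 the measures differ, as its level was 56.5 RPKM in Madoi and 21.4 RPKM in Maqu, past 2-fold. Hormone-sensitive lipase, which acts on droplets that perilipin coats, stood at -0.05 with an interval from -0.17 to 0.07.

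Of the 8 names of fatty acid carriers, muscle and heart fatty acid-binding protein 3 had the most reads, 35200 in Madoi and 23910 in Maqu. Its ratio was 0.67 summed over 2 copies, and 0.16 for the copy with the higher mean of scaled reads. The heart markers were not alike. T-box protein 5 stood at 1.23, homeobox protein Nkx-2.5 at 1.13 and cardiac troponin T at 0.89. Natriuretic peptide A stood at -0.09 and phospholamban at -0.42. The part of heart content in the ratio of fatty acid-binding protein 3 was not tested. Among 9 regulators, the bile acid receptor listed as nuclear receptor subfamily 1, group H, member 4, stood at 0.22, and SREBF2, the factor that drives LDL receptor and cholesterol synthesis genes, at 0.33.

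**Figure D4:**
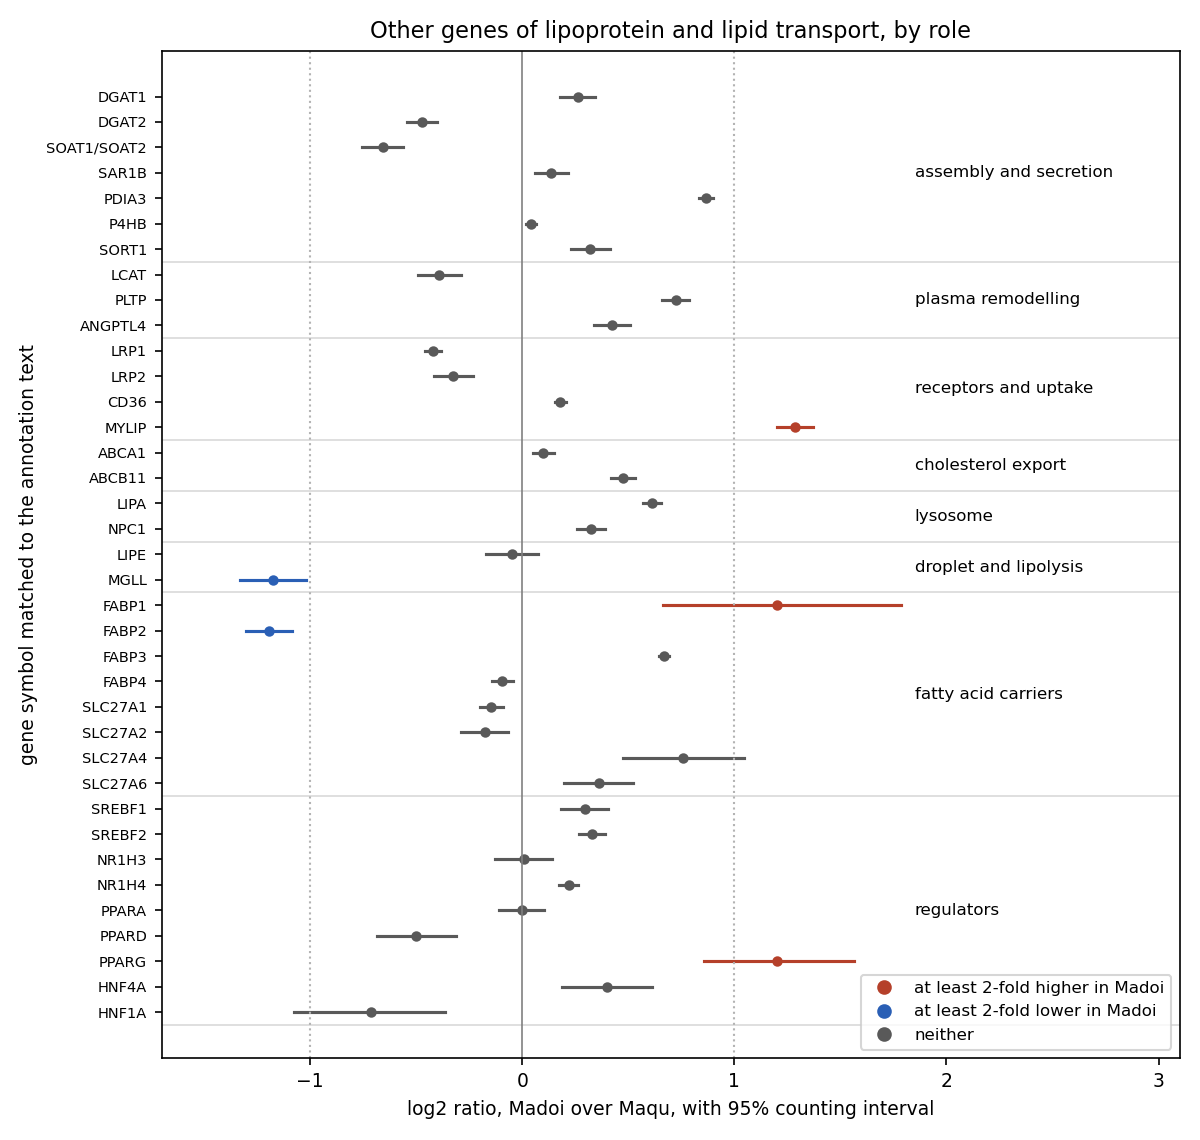
Points are log2 ratios of Madoi over Maqu for the 37 matched names of the list, with 95% counting intervals, grouped by role and given by gene symbol. Dotted lines mark 2-fold. MYLIP, FABP1 and PPARG lie to the right of them and MGLL and FABP2 to the left.

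In the authors' deposited table, apolipoprotein A-I was the only 1 of the 19 copies marked significant, with a log2 fold change of 1.17, a p-value of 0.0096 and a false discovery rate (FDR) of 0.194. In the authors' deposited table the mark followed from a log2 fold change of at least 1 in size and an unadjusted p-value below 0.05 in all 58458 assembled genes, so that marked genes had an FDR of up to 0.441. By that mark, 9.23% of the 58458 were marked higher and 1.2% marked lower. Lipoprotein lipase had a smaller p-value, 0.0042, and an FDR of 0.116 in the authors' deposited table, and was unmarked because its fold change of -0.85 on the log2 scale fell short. These p-values compare 2 single libraries.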

How the data were processed

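Per the labels' protocols, a Promega column kit (SV Total RNA Isolation System) yielded total RNA for standard Illumina libraries, and per the series' design text the transcriptome was handled with Trinity and BLAST. No label or header names the aligner or counter. The deposited expected counts are estimated reads per assembled gene, and they were rounded to whole numbers. The authors' RPKM values equal reads over length less 74.0 bases and over a library total that is 5.89% above the sum in the table for Madoi and 5.39% above it for Maqu, as fitted on assembled genes above 20 RPKM whose effective length equals their length. The deposited log2 fold change is the log2 of the RPKM ratio, and the deposited p-value and FDR columns come from a test that the sources used here do not name. Columns of other samples numbered 0.

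Libraries were scaled by TMM in edgeR 4.0.16 (factor 0.983 in Madoi, 1.02 in Maqu). Log2 ratios used a pseudocount of 0.5 reads, and intervals are exact 95% Clopper-Pearson intervals of the share of reads in Madoi. Levels have exact Poisson intervals, and the change of a balance between genes has a normal interval of the log odds. All cover counting error only, and they treat reads as independent molecules, which they are not. Variation between libraries of the same population is left out. A count of 0 allows up to 3 reads. No test was made across genes, since there is 1 library per population. The calls were tested on simulated data that held counting error only. That test did not cover variation between libraries, true differences near the threshold or changed genes with few reads. Names sum copies with Maqu reads. The named genes are all members, every name of the lipid list past the threshold, and the 2 names with most reads in each role. Members and lists were chosen with earlier results of these data known, and texts were matched by hand to the symbols. Alternatives were DESeq2 1.42.0 size factors (median of ratios), the library totals behind the RPKM, another pseudocount, read minimum and fold, and other treatments of copies. Sequences were not used here.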

Additional observations from a re-analysis of the deposited data

How the results depend on the processing

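No paired analysis was possible because each population has 1 library. The number of member copies called higher, 2 as reported, was 1 with a minimum of 50 reads, 1 at 4-fold, 1 with copies of at most 3 Maqu reads set apart (chosen after seeing the data), and 5 with copies of 0 Maqu reads counted in. The number called lower, 1 as reported, was 0 with scaling by the median of ratios, 0 with a pseudocount of 5 reads and 0 at 4-fold; that copy lies at the threshold. The list of other lipid genes had 0 names higher and 0 lower at 4-fold. With copies of 0 Maqu reads summed in, it had 5 higher. Low density lipoprotein-related protein 2 turned from -0.32 to 1.59, and the fatty acid transporter SLC27A4 went from 0.76 to 3.69. With the highest copy in place of the sum, the list of other lipid genes had 3 names lower in place of 2. Over all assembled genes with Maqu reads, 3990 were called higher and 3815 lower with a minimum of 50 reads, and 2577 higher and 2200 lower at 4-fold, against 6308 and 6270. By name, apolipoprotein A-I ranged from 1.17 to 1.23 over its 8 alternatives, lipoprotein lipase from -0.85 to -0.79, perilipin from -0.80 to -0.74 and the LDL receptor from 0.71 to 0.91. The LDL receptor-related protein 5/6 was called lower, at -1.001, with its highest copy in place of the sum. Apolipoprotein A-IV ranged from 2.11 to 3.87, and depth limits what its 21 reads can show. The 1 library per population limits every ratio.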

Other observations

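Gene ontology terms that mention lipoproteins were also carried by assembled genes outside the rule. Some of these are named for other functions, such as perlecan and syndecan, so the terms do not define a set of blood lipoprotein genes. Outside the members, 45 assembled genes carried a term that names a lipoprotein particle, a chylomicron or lipoprotein metabolism, a set defined after seeing the data. Of these, 7 had 0 Maqu reads. Of the other 38, 7 were called higher and 2 lower, where 13.1% and 13% of all assembled genes with Maqu reads were, and the median log2 ratio was 0.16. The terms of 220 assembled genes were not analysed here. The 7 called higher include 2 pairs of pieces from the same Trinity component. One pair, named triacylglycerol lipase, stood at 1.502 for comp14605_c0 and 1.42 for comp14605_c1. The other, named ATP-binding cassette, subfamily A, member 5, stood at 1.16 for comp17134_c0 and at 2.26 for comp17134_c1, which had 24 Madoi reads against 5 Maqu reads. The remaining 3 were a copy of MYLIP at 1.33, a C-type lectin at 1.18 and comp40365_c0, named DnaJ homolog, subfamily A, member 1. The last had 2238 Madoi reads against 1 Maqu read, below the 3 reads that a count of 0 would allow. Other copies of that DnaJ name, comp29163_c0 and comp15772_c0, stood at -0.83 and -0.72. Other copies named triacylglycerol lipase, comp38411_c0 and comp37577_c0, stood at 0.37 and 0.62. They had more reads than the called pair, with 609 and 4134 in Madoi. Other copies of the ATP-binding cassette name, comp373640_c0, comp150331_c0 and comp22252_c0, stood at 0.10, 0.64 and 0.78. None of these other copies was called. Both genes called lower had no annotation name. The first, comp25474_c0 of 594 bases with terms for very-low-density lipoprotein particles and lipoprotein metabolism, had 71 Madoi reads against 681 Maqu reads and was 8.83-fold lower in Madoi. The second, comp30317_c0 of 1491 bases with a term for lipoprotein metabolism, had 354 Madoi reads against 1290 Maqu reads and was 3.37-fold lower.

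An unnamed piece, comp18865_c1 of 1419 bases with a term for LDL particles, came from the same Trinity component as copy 3 of the LDL receptor. It had 125 Madoi reads against 223 Maqu reads, a ratio of -0.72, where copy 3 stood at -0.31, and their counting intervals overlap. Unnamed copies with Maqu reads and a term for high-density lipoprotein particles had ratios from -0.54 for comp31311_c0 to 0.16 for comp37017_c0. The one with most reads, comp40255_c0, had 55754 Madoi reads against 55784 Maqu reads at a ratio of 0.11. Another, comp36831_c0, had 19237 Madoi reads against 20653 Maqu reads at 0.01. An unnamed copy with that term, comp40465_c0 of 3740 bases, had 3664 Madoi reads and 0 Maqu reads. It is kept apart from these ratios, like the member copies with 0 Maqu reads. Its species was not tested, and 17.7% of all assembled genes had 0 Maqu reads.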
